A study of Mus musculus with 41 samples.

Results

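KO2 is a line of E14 mouse embryonic stem cells that is genetically depleted for Esrrb, a nuclear receptor without a known natural ligand that sustains naive pluripotency. The step described here is the change in KO2 cells between day 5 and day 3 in AloXR medium. It rests on 4 libraries of KO2 cells at day 5 and 4 at day 3, chosen by the line and day in the sample labels, and these are 8 of the 41 libraries of the series. Cells of both groups spent 1 day in N2B27 medium before AloXR, which adds activin A at 3 ng/ml, the tankyrase inhibitor XAV at 2 µM and the compound BMS439 at 1 µM. The series also holds WT cells, a second Esrrb-depleted line called KO3, and 2iL cultures kept in CHIR99021, PD0325901 and LIF, in 12 groups of line and medium. For comparison, the same step was measured in WT cells with 4 libraries at day 5 and 4 at day 3, and in KO3 cells with 2 libraries at each day. The labels give neither the allele nor whether KO2 is 1 clone, and cells were split every other day, so a passage lies between the days. Nor do they state if the libraries in a group came from separate cultures, so the p-values measure the spread between libraries, which may be technical.

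Naive embryonic stem cells correspond to the early epiblast of the blastocyst. Outside 2iL they lose naive factors such as Esrrb and Zfp42 and pass into a formative state, in which de novo DNA methyltransferases methylate much of the genome. CpG-rich promoters of many germline genes are among the sequences silenced in this period, by DNA methylation and by a variant Polycomb complex that contains the E-box binding proteins MGA and MAX and an E2F-family protein. Activin and Nodal signalling, with feedback through the Lefty inhibitors, holds cells in the formative and primed states.

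Expression was measured with 3′ mRNA sequencing, which counts 1 tag near the end of each transcript, and values are read counts scaled to a common total (CPM). The 8 libraries held 3963259 to 5644444 reads and showed 18092 to 19428 genes, and 3 reads, the limit that a count of 0 allows, equal 0.531 to 0.757 CPM. In bulk libraries, fewer cells that express a gene and less RNA per cell cannot be told apart. A gene was called at an adjusted p under 0.05 in limma with a change of at least 1.5-fold, and changes are log2 differences of log2(CPM + 1) with standard errors, which understate the change of genes near 0. Markers of pluripotent cells were present: Cdh1, Epcam, Lin28a, Sall4, Sox2, Utf1, L1td1, Tdgf1 and Pou5f1 summed to 2290 to 2712 CPM at day 5 and 2569 to 2811 CPM at day 3, with 0 of 9 called. The largest parts were Cdh1, at 823 to 936 CPM at day 5, and L1td1, at 482 to 814 CPM. Pou5f1 had 12.8 to 16.1 CPM at day 5 and 13.5 to 15.9 CPM at day 3. Among 5 haematopoietic markers none reached 2 CPM in any of the 8 libraries. Primitive endoderm markers summed to 6.86 to 14 CPM at day 5 and 7.99 to 15.9 CPM at day 3, mostly from Dab2 at 5.34 to 8.88 CPM and 6.17 to 10.3 CPM, with Sox7 at 0 and none of the 6 that passed the filter called.

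Day 5 library 1 stood apart from the others most clearly in muscle transcripts. Over all genes its chi-square per gene was 6.86 against library 2, 13.62 against library 3 and 17.99 against library 4. Libraries 3 and 4 differed by 2.86 and libraries 2 and 4 by 6.3, while pairs of day 3 libraries differed by 5.83 to 13.14. Transcripts of adult fast skeletal muscle were abundant in KO2 day 5 libraries 2, 3 and 4 and far lower in library 1 and in all day 3 libraries. Myh4, a fast myosin heavy chain, had 0.228, 61.7, 75.5 and 76.9 CPM at day 5, against 0, 0.252, 0.208 and 0.388 CPM at day 3. The giant sarcomere protein gene Ttn had 0.911, 40.5, 50.8 and 61.1 CPM at day 5, against 1.14, 0.757, 0.834 and 1.94 CPM at day 3. For Atp2a1, the calcium pump of fast fibres, the values were 0, 19.2, 23.8 and 25.3 CPM at day 5, against 0, 0, 0.208 and 0 CPM at day 3. In each case the groups overlapped through library 1 alone. Of 28 genes in a fast muscle list written after these values were seen, 21 were called higher in KO2, with a summed level of 81.3, 418, 494 and 513 CPM at day 5 and 117 to 132 CPM at day 3. Elsewhere the list summed to 224 to 393 CPM in WT at day 5, to 250 to 493 CPM in KO3 at day 5 and to 741 to 1026 CPM in KO2 in 2iL. In KO2 at day 1 it summed to 77.1 to 102 CPM, below the day 3 level. Regulators of muscle fate did not accompany them. Myog and Mymk were at 0 in all 8 libraries, Myod1 reached 0.668 CPM at day 5 and 0.228 CPM at day 3, and no gene of the 6 passed the filter on low values. Acta1, the skeletal actin gene, was 28.5 to 73.5 CPM at day 5 and 65 to 81.5 CPM at day 3 and was not called. A separate muscle and cardiac list, not written after these values were seen, had none of 10 measured genes called higher (median -0.26). In it Tnnt2 (-0.85 ± 0.26) and Actc1 (-1.05 ± 0.28) were called lower (20%, against 2.1% of all genes). Without day 5 library 1 neither was. The source of the muscle transcripts was not tested.

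**Figure D1:**
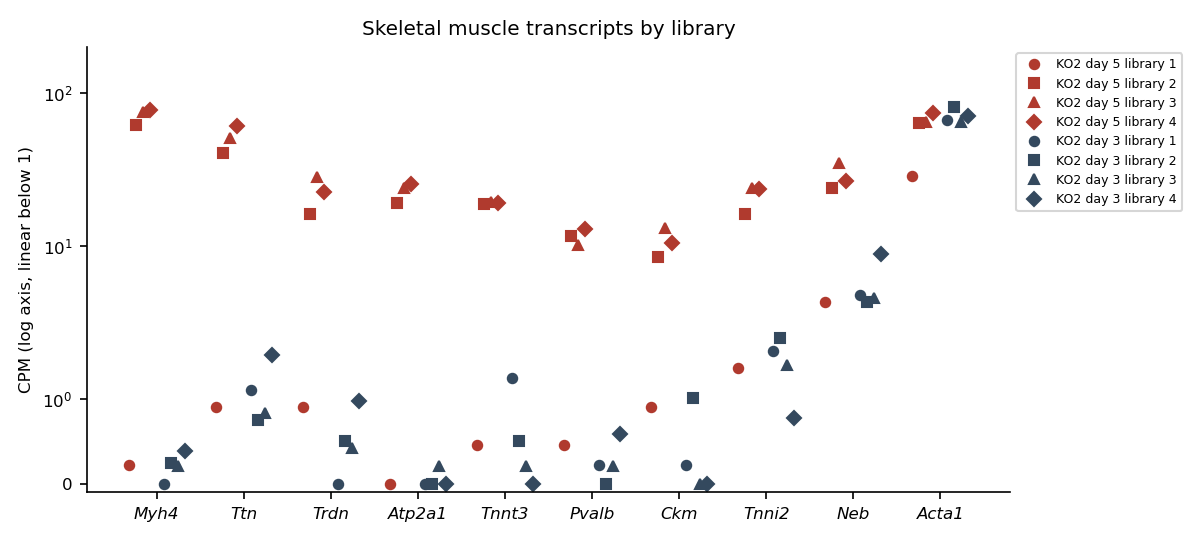
CPM of 10 skeletal muscle genes in each KO2 library, with day 5 in red left of day 3 in dark blue; symbols number the libraries and the axis is logarithmic above 1. Day 5 library 1 (red circle) lies with the day 3 libraries for the first 9 genes, and Myh4 stands at 61.7 to 76.9 CPM in the other 3.

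Between day 5 and day 3, KO2 cells changed 4.34% of 16967 genes tested. Limma called 381 genes higher at day 5 (2.25% of those tested) and 356 lower (2.1%). Of these, 279 of the higher genes and 277 of the lower ones showed no overlap between the 4 day 5 and the 4 day 3 libraries, where 6.05% of all genes lay wholly above and 4.99% wholly below. Without day 5 library 1 the numbers were 427 and 332, and without the muscle list 360 genes were higher. Among fits that leave out 1 library, the fewest calls came without day 5 library 2, at 225 higher and 235 lower. With a pseudocount of 5 CPM limma called 193 and 198, and within the 8 libraries alone 224 and 220. The median change of all genes was 0.013. Of the 15 largest rises, 11 belonged to the muscle list.

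**Figure D2:**
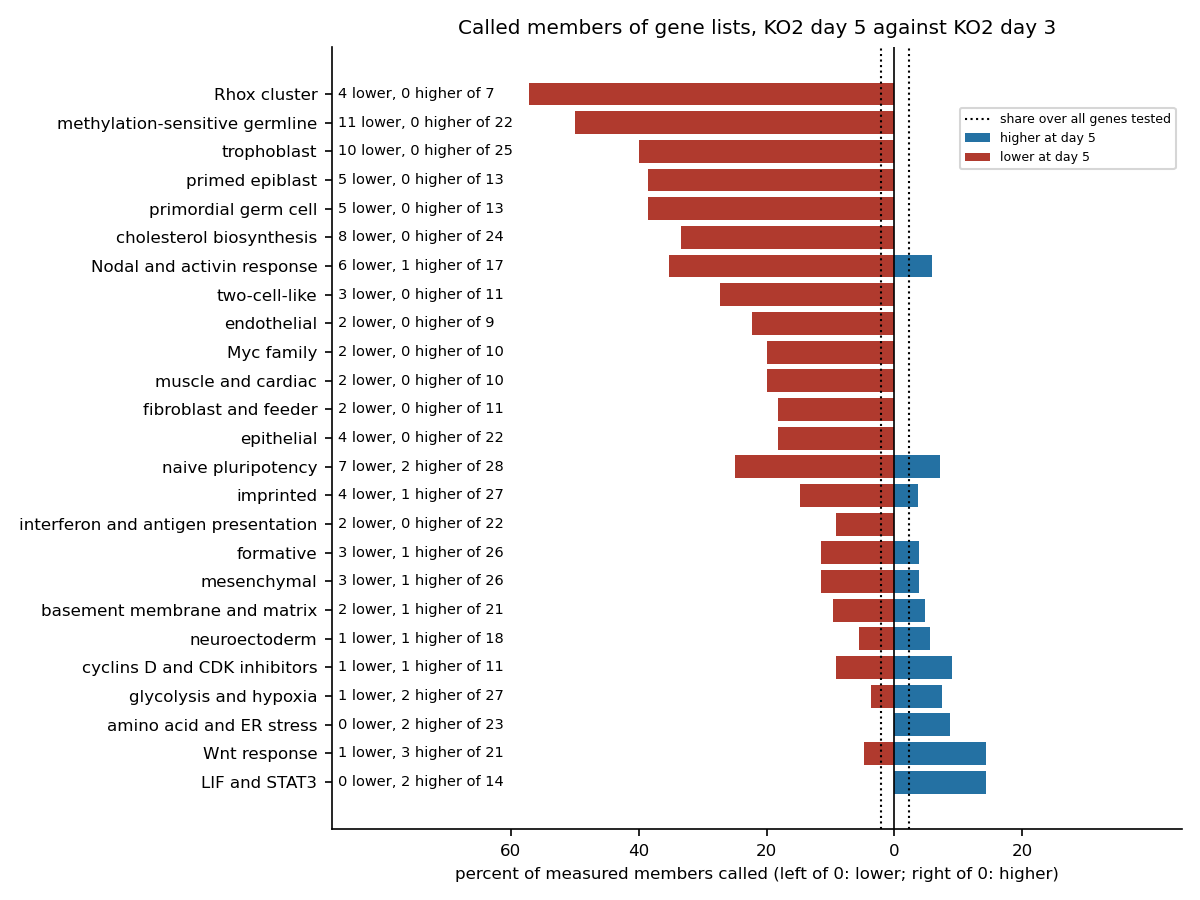
Percent of measured members called lower (red, left) or higher (blue, right) at KO2 day 5 against day 3. Each gene list with at least 2 called members is drawn, except the lists written after the values were seen. Dotted lines mark the 2.1% lower and 2.25% higher over all genes tested. The Rhox cluster (4 of 7 lower) and the methylation-sensitive germline list (11 of 22 lower) stand far to the left of the dotted line.

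Of 28 genes of naive pluripotency, 7 were called lower (25%, against 2.1% of all genes) and 2 higher (7.14%, against 2.25%). The other 19 were not called, and the median change was -0.17, against 0.013 over all genes. Dppa5a (ENSMUSG00000060461, chromosome 9, 78367052 to 78368177), an RNA-binding protein gene of early embryos, had 1.14, 0.946, 0.668 and 0.531 CPM at day 5, against 25.4, 22.7, 17.5 and 13.8 CPM at day 3. Its fall of 3.49 ± 0.20 (SE) on the log2 scale was the deepest of all genes named (limma adjusted p = 7.73e-17). Dppa4, whose chromatin protein works with Dppa2, had 19.8, 16.8, 11.1 and 11.3 CPM at day 5, against 69.2, 87.3, 47.1 and 46.5 CPM at day 3 (-2.0 ± 0.18, limma adjusted p = 2.63e-10). All day 5 libraries of both genes lay below all day 3 libraries. Dppa3, a maternal factor that protects DNA from demethylation, had 0.683, 0.237, 0.668 and 0.354 CPM at day 5, against 12.1, 8.07, 2.29 and 1.55 CPM at day 3 (-1.93 ± 0.41, limma adjusted p = 0.00256). Gdf3, a TGF-beta family ligand, fell by 1.59 ± 0.22, with 3.08 to 5.69 CPM at day 5 and 11.3 to 19.9 CPM at day 3.

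Esrrb itself, with the tags that remain in the depleted line, came to the detection limit. It had 0.455, 0.237, 0 and 0.886 CPM at day 5, against 3.20, 1.26, 2.29 and 1.16 CPM at day 3. These are few reads, yet the groups do not overlap. The difference on log2(CPM + 1) was -1.08, and the exact permutation test (two-sided) gave p = 0.0286, the lowest value possible with 70 splits of 4 against 4. The tags say nothing of functional protein, since which part was deleted is not stated. Zfp42, the zinc finger gene Rex1, had 1.14, 0.710, 1.78 and 1.06 CPM at day 5, against 3.65, 3.03, 1.88 and 2.52 CPM at day 3, and missed the threshold (-0.79 ± 0.27, limma adjusted p = 0.062). The Krüppel-like factor gene Klf4 stood at 1.42 to 3.37 CPM at day 5 and 2.52 to 4.65 CPM at day 3 (-0.43 ± 0.24, limma adjusted p = 0.339). Nanog, a homeobox factor of pluripotent cells, went the other way. It had 56.9, 34.1, 38.5 and 33.7 CPM at day 5, against 37, 18.7, 31.3 and 20 CPM at day 3 (0.61 ± 0.17, limma adjusted p = 0.0192). The groups overlap for Nanog, and 6 of 18 alternatives lost the call.

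Dnmt3l (ENSMUSG00000000730, chromosome 10, 78041947 to 78063622), a catalytically inactive cofactor of the de novo DNA methyltransferases, fell to about 1 CPM. It had 0.911, 1.18, 1.34 and 0.354 CPM at day 5, against 18, 18.7, 8.55 and 7.95 CPM at day 3 (-2.81 ± 0.36, limma adjusted p = 3.9e-06). The enzyme gene Dnmt3b was not called, at 1241 to 1662 CPM at day 5 and 1612 to 1663 CPM at day 3 (-0.19 ± 0.26, limma adjusted p = 0.761). Dnmt3l was the 1 called member among 11 measured genes of DNA methylation.

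**Figure D3:**
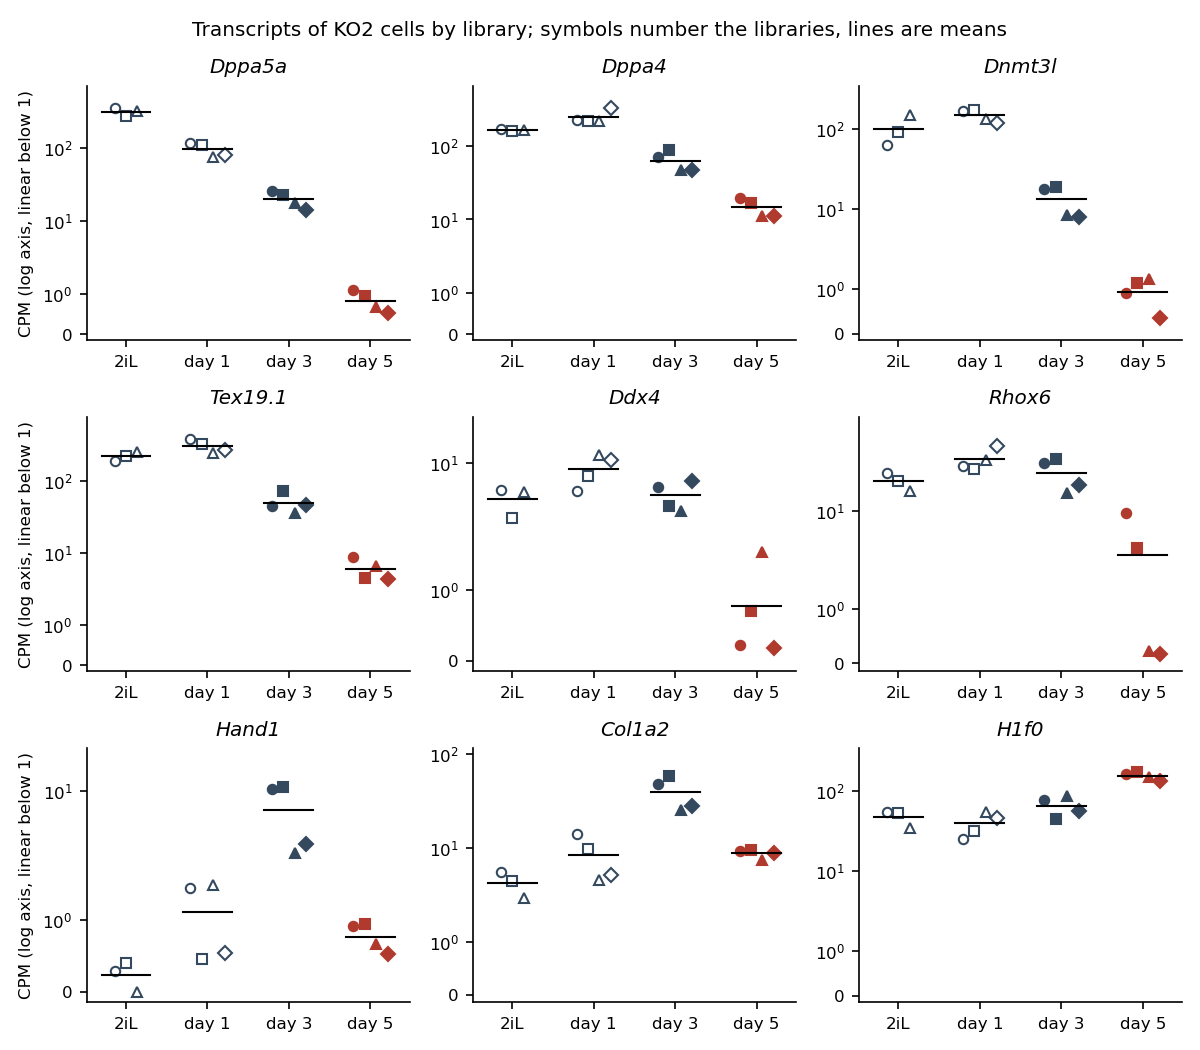
CPM of 9 genes in each KO2 library in 2iL and at AloXR days 1, 3 and 5 (log axis, linear below 1), with day 5 in red, symbols numbering the libraries and lines at group means. Dppa5a steps down at each stage, Rhox6 holds its level until day 3, Hand1 and Col1a2 peak at day 3, and H1f0 is highest at day 5.

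Of 22 measured germline genes known to be silenced by promoter methylation, 11 were called lower (50%, against 2.1% of all genes). None was called higher and 11 were not called, with a median change of -0.79 in KO2. Leaving out single libraries gave 10 to 11, and day 5 library 1 alone gave 5. Ddx4 (ENSMUSG00000021758, chromosome 13, 112598333 to 112652475), the RNA helicase Vasa of germ cells, had 0.228, 0.710, 2.00 and 0.177 CPM at day 5, against 6.40, 4.54, 4.17 and 7.17 CPM at day 3 (-1.97 ± 0.29, limma adjusted p = 7.06e-06). Dazl, an RNA-binding protein gene needed for germ cell development, had 0.455, 0.473, 0 and 0.177 CPM at day 5, against 3.65, 4.04, 3.33 and 2.71 CPM at day 3 (-1.81 ± 0.26). For both genes every day 5 library lay below every day 3 library, at the level of a few reads. Taf7l, a testis form of a TFIID subunit, fell by 2.17 ± 0.35, with 0.668 to 3.42 CPM at day 5 and 5.84 to 20.2 CPM at day 3. Rpl10l, a retrogene of the ribosomal protein gene Rpl10 that can share reads with it, fell by 2.31 ± 0.22, with 0.668 to 0.946 CPM at day 5 and 4.38 to 13.6 CPM at day 3. Outside this list but among the largest falls were 2 more germ cell genes. Tex19.1 (ENSMUSG00000039329, chromosome 11, 121146143 to 121148319), which restrains retrotransposons in germ cells, had 8.88, 4.5, 6.68 and 4.43 CPM at day 5, against 45.2, 73.7, 35.8 and 46.7 CPM at day 3 (-2.85 ± 0.26, limma adjusted p = 1.81e-09). Hsf2bp, a meiotic recombination gene, had 0.531 to 3.12 CPM at day 5 and 4.65 to 24.2 CPM at day 3 (-2.12 ± 0.31). Of 13 primordial germ cell genes 5 were lower (38.5%) and of 11 two-cell-like genes 3 (27.3%), against 2.1% of all genes. Among the 5, Ddx4, Dazl, Dppa3 and Tfap2c also stand in the germline, naive or trophoblast lists. The count of 3 fell to 1 without day 3 library 1, day 3 library 2 or day 5 library 2. Germline list members that were not called include Hormad1 (0.00 ± 0.26), Brdt (0.41 ± 0.28) and Sycp3 (-0.68 ± 0.29).

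The promoters of these genes are shown because the known silencers act on them through CpG sites, E-boxes and E2F sites. The sequences are the 250 bases before the RefSeq start on GRCm38.p6, read 5′ to 3′ on the gene's strand, with the E-box CACGTG and the E2F-type hexamers TCCCGC and GCGGGA in capitals. CACGTG reads alike on both strands, and the 2 E2F-type hexamers are complements of each other. Ddx4 lies at chr13:112652311-112652560 (minus strand), Mael, a piRNA pathway gene, at chr1:166238745-166238994 (minus), Sycp1, a synaptonemal complex gene, at chr3:102936101-102936350 (minus), Slc25a31, a germ cell ADP/ATP carrier gene, at chr3:40708621-40708870 (plus), and Dazl at chr17:50293621-50293870 (minus).
Ddx4: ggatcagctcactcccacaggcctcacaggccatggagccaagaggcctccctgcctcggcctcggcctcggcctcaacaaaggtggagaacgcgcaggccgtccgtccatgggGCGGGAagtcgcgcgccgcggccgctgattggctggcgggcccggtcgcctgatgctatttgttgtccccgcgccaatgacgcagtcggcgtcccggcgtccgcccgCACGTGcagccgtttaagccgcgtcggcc
Mael: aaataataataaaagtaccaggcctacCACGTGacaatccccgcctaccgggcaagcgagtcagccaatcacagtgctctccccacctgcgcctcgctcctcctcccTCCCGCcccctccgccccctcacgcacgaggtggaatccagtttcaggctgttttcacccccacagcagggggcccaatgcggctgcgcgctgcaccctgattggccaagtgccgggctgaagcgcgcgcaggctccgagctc
Sycp1: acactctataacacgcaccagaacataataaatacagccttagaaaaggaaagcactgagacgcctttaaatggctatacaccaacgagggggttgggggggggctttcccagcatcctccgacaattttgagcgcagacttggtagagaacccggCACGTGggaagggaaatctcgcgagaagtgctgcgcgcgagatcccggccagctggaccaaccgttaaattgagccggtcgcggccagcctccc
Slc25a31: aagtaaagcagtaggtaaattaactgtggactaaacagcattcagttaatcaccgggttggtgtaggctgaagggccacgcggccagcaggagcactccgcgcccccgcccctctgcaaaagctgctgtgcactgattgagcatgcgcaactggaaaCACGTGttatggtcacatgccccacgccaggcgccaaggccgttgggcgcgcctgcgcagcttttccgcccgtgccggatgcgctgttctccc
Dazl: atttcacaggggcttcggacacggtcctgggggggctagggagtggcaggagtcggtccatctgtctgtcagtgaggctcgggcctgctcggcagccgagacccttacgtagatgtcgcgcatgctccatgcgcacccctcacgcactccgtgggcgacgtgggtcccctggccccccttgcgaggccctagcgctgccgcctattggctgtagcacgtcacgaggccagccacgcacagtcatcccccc
Ddx4 holds 31 CpG dinucleotides in these bases, Dazl 20, Mael and Slc25a31 18 each and Sycp1 17, where the median of all 11585 measured genes with a promoter sequence was 16. Other called members lay on both sides of that median, with 8 in Rpl10l, 8 in Tuba3a and 14 in Taf7l. Mov10l1 had 19, and Stk31 had 21 or 26, depending on the start used. The E-box stands 29 bases before the start in Ddx4, 93 in Slc25a31, 94 in Sycp1 and 223 in Mael, counted from the first base of the motif, and is not among these letters in Dazl. An E-box occurred in 7 of the 10 called germline promoters with a sequence (70%), in 4 of 11 promoters of list members not called (36.4%) and in 9.72% of measured genes. Among all genes called lower it occurred in 12.3%, and among those called higher in 7.61%. The E2F-type hexamers were in 4 of the 10 (40%), against 33.3% of measured genes. These matches are descriptions of the letters, and binding or methylation was not measured. Mael, Sycp1 and Slc25a31 were chosen after their values were seen. Mael had 0.237 to 1.56 CPM at day 5 and 2.71 to 5.94 CPM at day 3 (-1.53 ± 0.28), Sycp1 had 0 to 1.11 and 2.29 to 5.48 CPM (-1.60 ± 0.26), and Slc25a31 had 0.455 to 1.77 and 3.10 to 7.08 CPM (-1.55 ± 0.25).

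Of 25 trophoblast-associated genes 10 were called lower (40%, against 2.1% of all genes), none higher and 15 not called (median -0.56). In a separate list of the Rhox homeobox genes of the X chromosome, which shares Rhox6 and Rhox9 with it, 4 of 7 were lower (57.1%). Rhox6 had 9.56, 4.26, 0.223 and 0.177 CPM at day 5, against 31.3, 34.3, 15.4 and 18.8 CPM at day 3 (-3.05 ± 0.48, limma adjusted p = 9.64e-05). Rhox9 had 6.83, 1.18, 0 and 0.531 CPM at day 5, against 16, 22.7, 7.71 and 8.73 CPM at day 3 (-2.59 ± 0.39). The 2 genes are related copies that can share reads, and for both, day 5 libraries 1 and 2 kept more than libraries 3 and 4. Rhox5, a further member, fell more evenly, with 24.4 to 37.2 CPM at day 5 and 66.5 to 109 CPM at day 3 (-1.45 ± 0.14). Hand1, a basic helix-loop-helix factor of trophoblast giant cells and mesoderm, had 0.911, 0.946, 0.668 and 0.531 CPM at day 5, against 10.3, 10.8, 3.33 and 3.88 CPM at day 3 (-2.05 ± 0.26). Ascl2, an imprinted factor of the ectoplacental lineage, fell by 1.67 ± 0.33. Tfap2c, an AP-2 family factor active in trophoblast and in germ cells, had 11.8, 4.73, 1.78 and 2.66 CPM at day 5, against 24.2, 33.8, 7.09 and 8.92 CPM at day 3 (-1.64 ± 0.38, limma adjusted p = 0.00579). The 2 groups overlap for Tfap2c. The trophoblast determinants Cdx2 and Elf5 did not exceed 0.914 CPM in any KO2 library of day 5 or day 3.

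Of 27 imprinted genes measured, Cdkn1c, Phlda2, H19 and Ascl2 were called lower (14.8%, against 2.1% of all genes). Nnat was called higher (3.7%, against 2.25%) and 22 were not called. Cdkn1c, an inhibitor of cyclin-dependent kinases, had 5.01, 4.02, 0.891 and 1.95 CPM at day 5, against 20.3, 16.7, 6.88 and 9.50 CPM at day 3 (-1.88 ± 0.27, limma adjusted p = 8.58e-06). Phlda2, a growth-restraining gene of the placenta, had 2.84 to 5.31 CPM at day 5 and 8.34 to 30.4 CPM at day 3 (-1.84 ± 0.35). The long non-coding RNA H19 had 291, 129, 71.2 and 67.9 CPM at day 5, against 571, 804, 163 and 216 CPM at day 3 (-1.61 ± 0.45, limma adjusted p = 0.0267). H19 libraries 1 and 2 were highest at both days, the groups overlap, and 7 of 18 alternatives lost the call.

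Nodal and activin response genes were lower in 6 of 17 cases (35.3%, against 2.1% of all genes). In 1 case they were higher (5.88%, against 2.25%), with 10 not called. Lefty1, a secreted inhibitor of Nodal, had 9.34, 13.5, 29.4 and 33.8 CPM at day 5, against 76.7, 90.1, 54.2 and 48.3 CPM at day 3 (-1.73 ± 0.40, limma adjusted p = 0.00663). Lefty2, its neighbour with the same role, had 9.56, 15.1, 14 and 19 CPM at day 5, against 58.9, 71.9, 28.3 and 31.4 CPM at day 3 (-1.59 ± 0.39). Day 5 libraries lay below day 3 libraries for both Lefty genes. Fst, which binds and neutralises activin, had 6.38, 7.57, 13.6 and 14.5 CPM at day 5, against 53.7, 9.59, 60.7 and 31.8 CPM at day 3 (-1.59 ± 0.46, limma adjusted p = 0.0349), and day 3 library 2 overlapped day 5. The ligand gene Nodal had 9.34, 10.4, 24.5 and 27.8 CPM at day 5, against 18.3, 21.7, 25.6 and 34.3 CPM at day 3 and was not called (-0.56 ± 0.28, limma adjusted p = 0.255). Inhba, an activin subunit, was called higher at 0.911 to 3.19 CPM at day 5 and 0.505 to 1.14 CPM at day 3, a call lost in 13 of 17 alternatives. Without day 5 library 1 the counts were 4 lower and 2 higher. Of 13 primed epiblast genes 5 were lower (38.5%), among them the 2 Lefty genes, Fst and Krt18, and 3 without that library. Without day 3 library 1, day 3 library 2 or day 5 library 2, 2 were lower.

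None of 13 core genes was called, with Sox2 at 42.1 to 117 CPM at day 5 and 44.4 to 92.5 CPM at day 3 (0.13 ± 0.24, limma adjusted p = 0.826). Of 26 formative genes 3 were lower (11.5%, against 2.1% of all genes) and 1 higher. Without day 5 library 1, or without day 3 library 4, 1 was lower. Otx2, a homeobox factor that directs exit from the naive state, had 137 to 239 CPM at day 5 and 203 to 277 CPM at day 3 (-0.38 ± 0.20, limma adjusted p = 0.283). Fgf5, which encodes an epiblast growth factor, had 93.2 to 119 CPM at day 5 and 111 to 150 CPM at day 3 (-0.34 ± 0.14, limma adjusted p = 0.134). Lef1, a nuclear effector of Wnt signalling, fell by 0.64 ± 0.17. Car14, a carbonic anhydrase gene, was the formative member that rose, with 55.8, 58.2, 47.2 and 43.1 CPM at day 5, against 25.6, 20.9, 26.7 and 26.2 CPM at day 3 (1.01 ± 0.18, limma adjusted p = 0.000221). Of 21 Wnt response genes, Tcf7, Sfrp1 and Nkd2 rose (14.3%, against 2.25% of all genes) and Lef1 fell (4.76%, against 2.1%). Leaving out single libraries gave 2 to 3 higher and 0 to 2 lower, with none lower without day 5 library 1.

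Of 24 genes of cholesterol supply, 8 were called lower in KO2 (33.3%, against 2.1% of all genes), none higher and 16 not called (median -0.46). Hmgcs1, the synthase before the rate-limiting step, had 510, 485, 678 and 764 CPM at day 5, against 874, 815, 1278 and 1163 CPM at day 3 (-0.76 ± 0.13, limma adjusted p = 0.000215). All day 5 libraries of Hmgcs1 lay below all day 3 libraries, and within each day libraries 1 and 2 lay below libraries 3 and 4. Cyp51, a sterol demethylase gene, fell by 0.82 ± 0.16 and Msmo1, a sterol oxidase gene, by 0.77 ± 0.15. Leaving out single libraries gave 6 to 13 lower members, with 6 without day 5 library 1. Fatty acid synthesis genes were not called, 0 of 15 (median -0.07). At an unadjusted limma p under 0.05, 3 of the 15 passed.

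Of 22 genes in the interferon and antigen presentation list 2 were called lower, Psmb8 and Irf1 (9.09%, against 2.1% of all genes). The list's median was -0.01. Psmb8, an immunoproteasome subunit, had 5.69, 8.04, 13.6 and 12.4 CPM at day 5, against 36.3, 29.8, 29.6 and 27.7 CPM at day 3 (-1.60 ± 0.26, limma adjusted p = 3.55e-05). In a second list, written after the values were seen and therefore no support, 13 of 19 measured genes were called lower. Among them Gbp7, a guanylate-binding protein gene, had 2.96, 5.44, 4.90 and 5.49 CPM at day 5, against 18, 17.9, 16.7 and 18.2 CPM at day 3 (-1.74 ± 0.23), and Tapbp, the tapasin gene of antigen loading, had 25.6 to 37.9 CPM at day 5 and 70 to 85.5 CPM at day 3 (-1.33 ± 0.13).

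Of 26 mesenchymal genes, Acta2, Anxa1 and Tagln were called lower (11.5%, against 2.1% of all genes) and Cnn2 higher (0.84). Of 21 matrix genes, Col1a2 and Col1a1 were called lower (9.52%) and Agrn higher (0.59). Without day 5 library 1, 1 gene of each list was lower. Col1a2, a fibrillar collagen gene, had 9.34, 9.70, 7.57 and 9.04 CPM at day 5, against 48, 58.5, 25.4 and 28.1 CPM at day 3 (-1.97 ± 0.33, limma adjusted p = 7.54e-05). Acta2, smooth muscle actin, had 35.1 to 52.8 CPM at day 5 and 70.6 to 121 CPM at day 3 (-1.21 ± 0.22). Of 11 fibroblast and feeder markers past the filter, the same Col1a2 and Col1a1 were called lower and none higher (median change 0.09). The 14 defining markers summed to 60.1 to 74.4 CPM at day 5 and 80.5 to 130 CPM at day 3, with the largest drop in Col1a2. Thy1 had 12.7 to 14.3 CPM at day 5 and 7.06 to 11.5 CPM at day 3, and Mmp2 had 18.5 to 25.6 and 12.8 to 24 CPM. Neither was called. Dcn, Fbn1 and Pdgfrb had negative changes that were not called. Among the 14, 7 markers, including Col3a1, Fap, Postn and Lum, stayed at or under 2 CPM. The part of such cells in the result was not tested. Of 22 epithelial genes, Krt7, Krt8, Krt18 and Esrp2 were called lower (18.2%) and none higher, while Krt19 was not called (-0.32). Krt7, Krt8 and Krt18 are also among the lower genes of the trophoblast list. Leaving out single libraries gave 1 to 4 lower epithelial genes. Krt8 was at 51.7, 47.6, 51.4 and 59.2 CPM at day 5, against 122, 168, 104 and 111 CPM at day 3 (-1.23 ± 0.18, limma adjusted p = 9.83e-06), and Krt18 at 187 to 221 CPM at day 5 and 269 to 446 CPM at day 3 (-0.81 ± 0.22). Both keratins have processed copies in the genome that can share reads. Cryab, a small heat shock protein gene, had 14.1, 14.2, 10.2 and 12.6 CPM at day 5, against 36.8, 52.2, 37.3 and 37 CPM at day 3 (-1.60 ± 0.31). Ndrg1, a stress-responsive gene, was among the most uniform falls, with 16.2, 17, 16.5 and 17.7 CPM at day 5, against 55.7, 46.9, 52.5 and 51 CPM at day 3 (-1.56 ± 0.25, limma adjusted p = 7.1e-05).

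Apart from muscle genes, the 15 largest rises held Adgrb2, Ndrg2, Kcnab3 and Zfhx4. Adgrb2, an adhesion receptor gene of neurons, had 5.01, 5.44, 7.57 and 3.72 CPM at day 5, against 0.914, 0.252, 0.625 and 1.75 CPM at day 3 (1.80 ± 0.29, limma adjusted p = 3.67e-05). Ndrg2, a relative of Ndrg1, had 6.83, 11.6, 8.68 and 9.39 CPM at day 5, against 2.51, 3.78, 1.25 and 2.33 CPM at day 3 (1.58 ± 0.28). Zfhx4, a large zinc finger homeobox gene, had 10.2, 11.4, 6.46 and 10.3 CPM at day 5, against 1.60, 3.28, 2.71 and 2.91 CPM at day 3 (1.54 ± 0.24). Day 5 library 1 shared all of these rises, and no day 5 library overlapped day 3. More abundant genes with non-overlapping groups were named after their values were seen. Stmn2, a microtubule regulator, had 300, 331, 343 and 353 CPM at day 5, against 140, 132, 201 and 169 CPM at day 3 (1.06 ± 0.14, limma adjusted p = 2.32e-06). Hmga2, an architectural chromatin protein, had 69.2 to 84.7 CPM at day 5 and 28.1 to 41.1 CPM at day 3 (1.15 ± 0.14). H1f0, a replication-independent linker histone, had 163, 171, 149 and 133 CPM at day 5, against 77.4, 43.9, 85 and 55.7 CPM at day 3 (1.26 ± 0.18, limma adjusted p = 7.06e-06). In the LIF and STAT3 list 2 of 14 genes rose (14.3%, against 2.25% of all genes). These were the feedback genes Socs3 (1.33 ± 0.30) and Cish (0.83 ± 0.23), and leaving out single libraries gave 1 to 3. Of lineage genes, 1 of 18 in the mesendoderm list, 2 of 18 in the neuroectoderm list and 1 of 23 in the primitive endoderm list were called, beside 4.34% over all genes. No gene of the ribosomal protein, oxidative phosphorylation, S phase, G2 and mitosis, p53, apoptosis, retinoic acid, BMP and Id, Hox or haematopoietic lists was called in limma. At an unadjusted limma p under 0.05 there were 1 of 31 ribosomal protein genes, 9 of 31 oxidative phosphorylation genes, 5 of 22 S phase genes, 6 of 21 G2 and mitosis genes, 6 of 20 p53 response genes with a difference. The same held for 5 of 14 apoptosis genes, 1 of 16 retinoic acid response genes, 3 of 15 BMP and Id genes, 0 of 15 Hox genes, 1 of 7 haematopoietic genes and 1 of 13 core pluripotency genes. edgeR called 1 gene lower in each of the BMP and Id, p53 and apoptosis lists and none in the others.

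The share of mitochondrially encoded reads was 2.96, 2.66, 2.79 and 2.90% at day 5, against 3.49, 2.81, 3.59 and 3.83% at day 3. The difference of -0.60 percentage points gave p = 0.0857 in the exact permutation test (two-sided), and one day 3 library overlapped day 5. Medians of the 20 chromosomes, over 8477 genes with a mean of at least 10 CPM, lay between -0.02 and 0.07.

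In WT cells the same step changed more genes, 1690 higher (9.96% of those tested) and 674 lower (3.97%), a split that moved to 1103 higher and 1037 lower under quantile normalization. Of the 381 genes that rose in KO2, 184 rose in WT too (48.3% of the KO2 list and 10.9% of the WT list). The fast muscle list, with 21 of 28 genes called higher in KO2 and 21 in WT, was not left out of these counts. Of the 356 that fell in KO2, 97 fell in WT (27.2% and 14.4%), while 14 rose in WT. The 2 steps share no libraries. The difference between them, KO2 minus WT, was called for 116 genes above 0 (0.684%) and 437 below 0 (2.58%), 3.26% in all. TMM scaling gave 190 and 346. It was called for 120 of the 737 genes called in KO2.

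Several genes fell in KO2 and rose in WT. H19 rose by 2.08 ± 0.45 in WT, with 44.3, 45.6, 38.9 and 31.9 CPM at day 5, against 8.93, 14.2, 6.88 and 6.33 CPM at day 3, and the KO2 minus WT difference was -3.69 ± 0.63 (limma adjusted p = 0.000884). Cryab and Ndrg1 differed by -3.25 ± 0.44 (limma adjusted p = 1.21e-05) and -2.79 ± 0.36 (limma adjusted p = 4.04e-06), Krt8 by -1.82 ± 0.26 and Krt18 by -2.12 ± 0.31. For Krt18 the KO2 libraries at day 5, at 187 to 221 CPM, came close to the WT ones, at 229 to 277 CPM, whereas at day 3 KO2 held 269 to 446 CPM and WT 85.1 to 111 CPM. The keratin levels of the 2 lines thus lay nearer each other at day 5. Of the trophoblast list, 14 of 25 genes had a KO2 minus WT difference below 0. Other genes fell in KO2 and were low in WT at both days. Rhox6 had 0 to 2.05 CPM in WT at day 5 and 0 to 0.609 CPM at day 3, and Dnmt3l had 0 to 0.655 CPM and 0.203 to 0.655 CPM. Their differences were -3.29 ± 0.68 and -2.49 ± 0.50. With WT at a few reads already at day 3, a fall in WT could hardly show, so these differences mainly restate the KO2 falls.

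A further set fell in WT and was not called in KO2. Tdgf1, the Nodal co-receptor Cripto, had 66.5, 109, 159 and 186 CPM at KO2 day 5, against 126, 113, 135 and 81.4 CPM at KO2 day 3. In WT it had 11.8, 15.7, 22.1 and 15.5 CPM at day 5, against 67.8, 101, 88 and 84.7 CPM at day 3. The difference between the steps was 2.45 ± 0.27 (limma adjusted p = 4.77e-07), held in all 25 alternatives, though with day 5 library 1 alone Tdgf1 fell in KO2 (-0.74). Foxd3, a forkhead repressor of epiblast and neural crest, was 28.9 to 112 CPM at KO2 day 5 and 49.5 to 85 CPM at KO2 day 3, and 16 to 29.3 CPM and 82.6 to 169 CPM in WT (difference 2.30 ± 0.54, limma adjusted p = 0.0129). Etv1, an ETS factor downstream of FGF signalling, differed by 1.89 ± 0.47 (limma adjusted p = 0.0191). Within the FGF and ERK list, KO2 had 1 of 21 genes lower and none higher, WT had 11 lower and 5 higher, and the difference was above 0 for 4 and below 0 for 2. Fgf5 fell in WT by 1.03, with a difference of 0.69 ± 0.19 (limma adjusted p = 0.0316), a call lost in 10 of 25 alternatives.

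**Figure D4:**
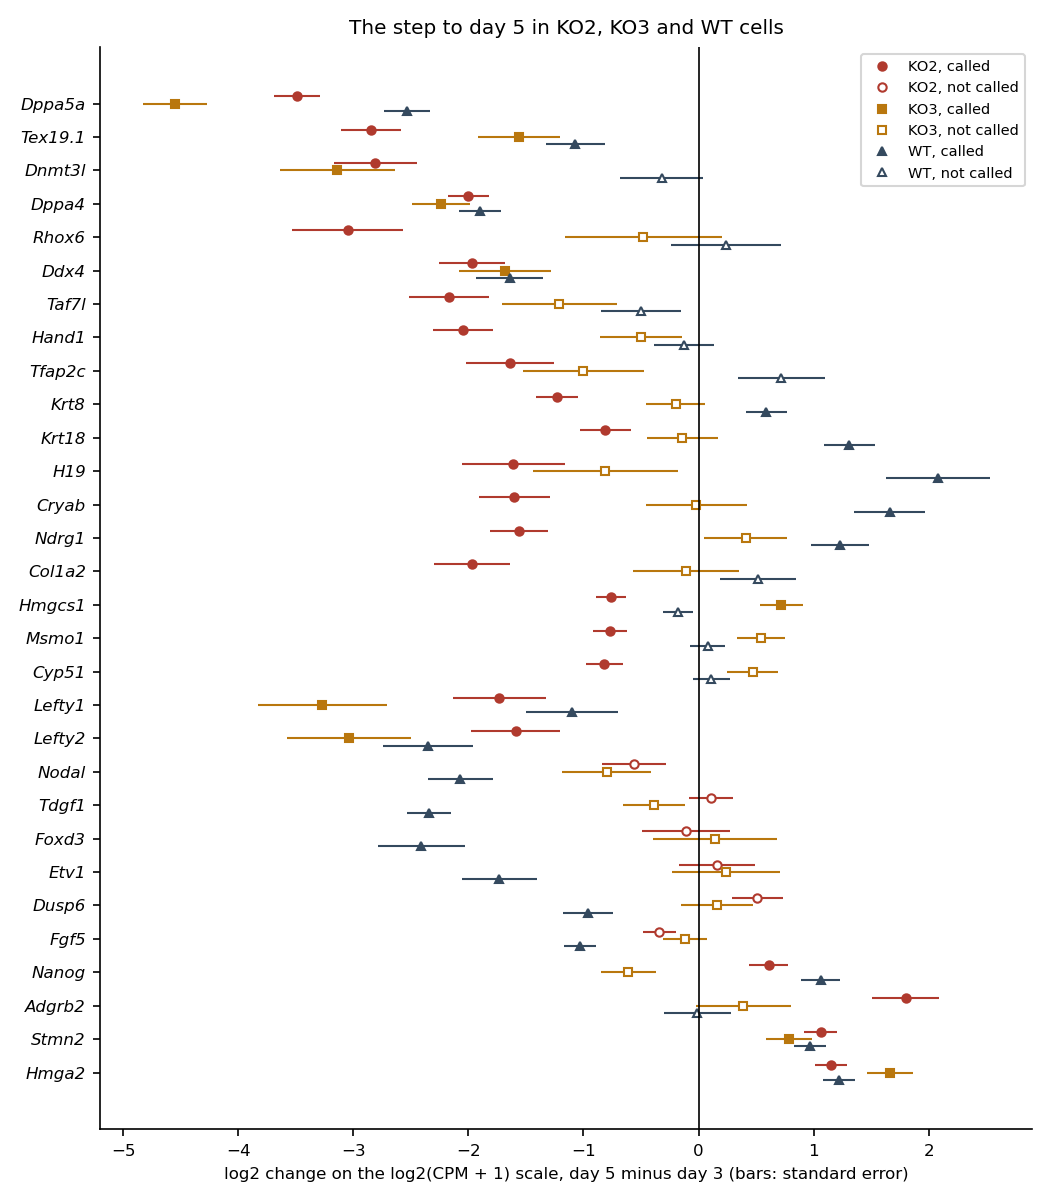
Log2 change of 30 genes between day 5 and day 3 on the log2(CPM + 1) scale, in KO2 (circles), KO3 (squares) and WT (triangles), with standard errors; filled symbols mark called genes. H19, Cryab, Ndrg1, Krt8 and Krt18 lie left of 0 in KO2 and right of 0 in WT, and Tdgf1 lies at 0.11 in KO2 and -2.34 in WT.

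The other depleted line allowed a coarser comparison, since KO3 has 2 libraries per day. Its step called 49 genes higher (0.289%) and 136 lower (0.802%), 1.09% of genes tested. Of the 136, 63 also fell in KO2 (46.3% of the KO3 list, 17.7% of the KO2 list). Fewer of the rises were shared, 13 of 49 (26.5% of the KO3 list, 3.41% of the KO2 list). Dppa5a fell by 4.55 ± 0.28 in KO3 and Dnmt3l by 3.14 ± 0.50. KO2 minus KO3 was called for 7 genes above 0 (0.0413%) and 21 below 0 (0.124%). Sterol genes were among them. Hmgcs1 rose in KO3 by 0.72 ± 0.19, with 1773 and 2042 CPM at day 5, against 1167 and 1149 CPM at day 3, and differed between the lines by -1.48 ± 0.23 (limma adjusted p = 0.00202). Msmo1 differed by -1.30 ± 0.25 and Cyp51 by -1.29 ± 0.27. Of 24 sterol genes, 8 were lower and none higher in KO2, against none lower and 1 higher in KO3. Nefm, a neurofilament gene, had 16.6, 22.9, 41.6 and 56.7 CPM at KO2 day 5, against 22.8, 23.7, 27.3 and 22.7 CPM at KO2 day 3. In KO3 it had 200 and 188 CPM at day 5, against 35.6 and 34.3 CPM at day 3 (difference -2.09 ± 0.41, limma adjusted p = 0.0179). Tnc, a matrix glycoprotein gene, differed by -2.48 ± 0.49. Without each of the 4 KO3 libraries in turn, 0 to 4 genes above 0 and 0 to 3 below 0 were called, so the count of these differences depends on each KO3 library.

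**Figure D5:**
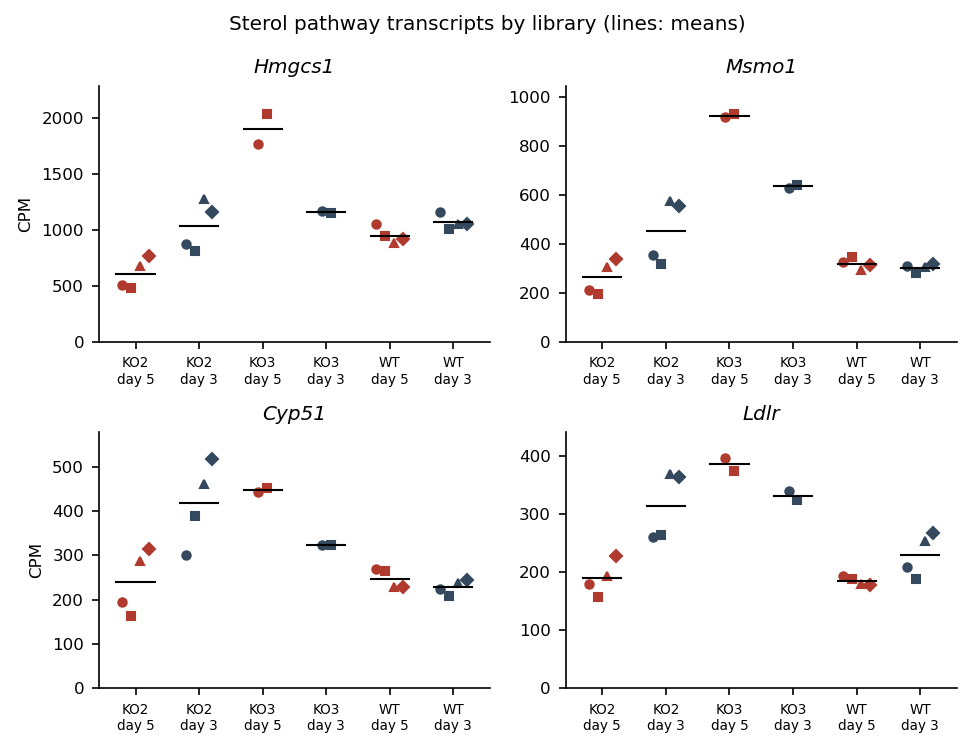
CPM of 4 sterol pathway genes in each library, with day 5 (red) left of day 3 (dark blue) in KO2, KO3 and WT, symbols numbering the libraries and lines at means. In KO2 all 4 means are lower at day 5, while Hmgcs1 in KO3 is 1773 and 2042 CPM at day 5 and 1167 and 1149 CPM at day 3.

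The step can be set in the course of KO2 cells. Day 3 against day 1 called 1069 genes higher (6.3%) and 995 lower (5.86%), and day 5 against 2iL called 2818 higher (16.6%) and 3029 lower (17.9%), 34.5% in all. Both comparisons share libraries with the step, so the counts stand side by side and were not tested against each other. Dppa5a averaged 310 CPM in 2iL, 94.3 at day 1, 19.8 at day 3 and 0.821 at day 5. Hand1 averaged 0.233, 1.16, 7.09 and 0.764 CPM at the same times and Col1a2 4.31, 8.45, 40 and 8.91 CPM, so that both were highest at day 3. Rhox6 averaged 20.4, 34, 25 and 3.56 CPM, and its largest drop in mean came in the last step.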

How the data were processed

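Per the submitters' processing notes, reads of 3′ mRNA libraries were aligned with STAR 2.7.6a to GRCm38 and counted with featureCounts 2.0.1, and the authors deposited CPM for 55487 genes in 41 libraries. All 766190 values above 0 were whole reads within 0.01 read, so reads were recovered for the count tests. The 16967 genes that reached 1 CPM in 3 or more libraries were tested as log2(CPM + 1) with limma 3.58.1 in R 4.3.3, with 12 group means, 29 residual degrees of freedom, a robust trended prior and Benjamini-Hochberg adjustment. The difference between steps was a contrast in the same fit. edgeR 4.0.16, DESeq2 1.42.0, other pseudocounts, filters, scalings and left-out libraries were alternatives. Single values had exact permutation tests, and the fit was tested on simulated data. Intervals and limits from counts cover counting error only. Named genes were, by rule, the largest rises and falls among called genes, up to 4 called members of each list and the largest differences between lines, with a few fixed genes; others are said to be chosen after their values were seen. The members and lists were chosen with earlier results of these data known. Promoters are RefSeq sequences on GRCm38.p6. Library numbers only name libraries. Some genes are not reported here.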

Additional observations from a re-analysis of the deposited data

Results flagged for a closer look

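Among 218 groups of 4 libraries examined over the named genes, 18 had 1 library far from the other 3, where chance alone flags about 1 in 20. At KO2 day 5 a library stood high for Phlda2 at 5.31 CPM in library 4, Usp17la at 0.177 CPM in library 4, Gm20767 at 0.177 CPM in library 4, Tagln at 35.4 CPM in library 4 and Pou5f1 at 16.1 CPM in library 4. At KO2 day 5 a library stood low for Anxa1 at 1.14 CPM in library 1, P4ha1 at 11.9 CPM in library 4, Mylpf at 2.5 CPM in library 1, Tnni2 at 1.59 CPM in library 1, Pvalb at 0.455 CPM in library 1, Tnnt3 at 0.455 CPM in library 1, Atp2a1 at 0 CPM in library 1, Ttn at 0.911 CPM in library 1 and Myh4 at 0.228 CPM in library 1. At KO2 day 3 the high libraries were Cryab at 52.2 CPM in library 2, Neb at 8.92 CPM in library 4 and Atp2a1 at 0.208 CPM in library 3, and the low one was Hspa12a at 1.46 CPM in library 3. Of these genes Mylpf, Tnni2, Pvalb, Tnnt3, Atp2a1, Ttn and Myh4 belong to the fast muscle list, and for each of them day 5 library 1 was the low one. The high values of Usp17la and Gm20767 at day 5 and of Atp2a1 at day 3 are 1 read each. That read alone set the flag, so these 1-read flags say nothing about the library.

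For 43 named genes the step in KO2 minus the step in WT was called in limma (log2 difference). The differences below 0 were Dppa5a at -0.96, Rhox6 at -3.29, Tex19.1 at -1.78, Dnmt3l at -2.49, Gm21761 at -2.38, Rhox9 at -2.72, Calml4 at -2.0, Triml2 at -1.19, Rpl10l at -1.52, Taf7l at -1.67, Hand1 at -1.92, Col1a2 at -2.49, Dppa3 at -1.99, Cdkn1c at -1.79, Dazl at -1.4 and Ascl2 at -2.15. Further ones below 0 were Tfap2c at -2.36, H19 at -3.69, Cryab at -3.25, Ndrg1 at -2.79, Fabp3 at -2.97, Rhox13 at -1.52, Anxa1 at -2.09, Krt8 at -1.82, Acta2 at -1.43, Col1a1 at -2.24, Cyp51 at -0.93, Krt18 at -2.12, Tagln at -1.21, Msmo1 at -0.84, Ddit3 at -2.99 and Tnc at -1.83. Those above 0 were Lef1 at 0.96, Fgf5 at 0.69, Lbhd1 at 1.75, Magel2 at 1.78, Foxd3 at 2.3, Tdgf1 at 2.45, Etv1 at 1.89, Urah at 1.3, Car14 at 0.92, Kcnab3 at 1.47 and Adgrb2 at 1.81. The call was lost in 20 of 25 alternatives for Taf7l, 19 for Dppa3, 17 for Kcnab3, 14 for Dppa5a, 12 each for Fabp3 and Tagln, and 10 each for Triml2 and Fgf5. For Rhox6 and Dnmt3l, WT levels before the step were too low for a fall to show.

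For 10 named genes the step in KO2 minus the step in KO3 was called. Below 0 were Ndrg1 at -1.96, Cttnbp2 at -2.29, Cyp51 at -1.29, Msmo1 at -1.3, Hmgcs1 at -1.48, Tnc at -2.48 and Nefm at -2.09, and above 0 were Phactr3 at 1.83, Urah at 2.05 and Hspa12a at 1.84. KO3 has 2 libraries at each day. The call was lost in 12 of 21 alternatives for Ndrg1, 11 for Hspa12a and 10 for Phactr3.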

How the results depend on the processing

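The KO2 step gave 193 higher and 198 lower with a pseudocount of 5 CPM, 224 higher and 220 lower within the 8 KO2 libraries, 330 higher and 371 lower in edgeR and 366 higher and 407 lower in DESeq2. With day 5 library 1 as the lone day 5 library, an alternative chosen after seeing the data in which it is assumed to vary like the other groups, 186 genes were higher. Leaving out single libraries gave 225 to 427 higher and 235 to 352 lower for the KO2 step, 1434 to 1594 higher and 553 to 661 lower for WT, 14 to 18 higher and 49 to 64 lower for KO3, 909 to 1063 higher and 848 to 956 lower for KO2 day 3 against day 1 and 2718 to 2900 higher and 2926 to 2965 lower for KO2 day 5 against 2iL. For the differences between steps it gave 57 to 256 above and 294 to 613 below 0 for KO2 minus WT and 0 to 20 above and 0 to 35 below 0 for KO2 minus KO3, and -0.81 to -0.47 percentage points for the mitochondrial share. KO2 minus WT gave 240 above and 422 below 0 in DESeq2, 207 above and 271 below 0 in edgeR, 61 above and 274 below 0 with no filter, 190 above and 346 below 0 with TMM scaling, 191 above and 315 below 0 with quantile normalization and 5 above and 103 below 0 with day 5 library 1 alone. KO2 minus KO3 gave 19 above and 46 below 0 in DESeq2, 1 above and 13 below 0 in edgeR, 24 above and 52 below 0 with no filter, 1 above and 10 below 0 at a pseudocount of 0.5 CPM, 17 above and 42 below 0 at 5 CPM and 29 above and 66 below 0 with day 5 library 1 alone. A pseudocount of 5 CPM gave 945 higher and 364 lower in WT, 85 higher in KO3, 581 higher and 444 lower for KO2 day 3 against day 1 and 1876 higher and 1850 lower for KO2 day 5 against 2iL. Quantile normalization gave 1103 higher and 1037 lower in WT. In KO3, 31 genes were higher in edgeR, 99 with no filter, and 223 higher and 249 lower within the 4 KO3 libraries. The cause of these shifts was not tested. With day 5 library 1 alone the change turned negative for Tdgf1 (-0.74), Casq1 (-0.14), Mb (-0.59), Neb (-0.27), Tcap (-0.15), Mylpf (-0.02), Tnni2 (-0.04), Atp2a1 (-0.07) and Ttn (-0.15). The KO2 minus WT difference of Triml2 was -1.19 in limma, 0.88 in DESeq2 and 0.62 in edgeR. Of 94 called genes among the 112 named by rule, 30 were called in every alternative run and 64 lost the call in 1 or more. No paired analysis was possible because the labels tie no library of one day to a library of the other. At both days, KO2 libraries 1 and 2 lay apart from libraries 3 and 4 for genes such as H19 and Hmgcs1. The labels name no batch, and the fit held no term for this split, which limits its p-values. At 3963259 to 5644444 reads, values under 0.531 to 0.757 CPM rest on fewer than 3 reads.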
